A study of Mus musculus with 111 samples.

Results

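Gene expression was compared between the left and right gastrocnemius muscles of 7 male C57BL/6 mice at day 7 after tenotomy, the cutting of an Achilles tendon. The comparison holds 14 of the 111 arrays of the series and 7 of its 70 animals. The arrays were chosen by sample title, leg side and animal number, which gave 7 left legs labelled as tenotomy treatment and 7 right legs of the same animals labelled as tenotomy control. The mice were 8 weeks old at surgery, per the design text. The sources disagree on the operated leg: the sample labels give tenotomy as the treatment of the left legs and none for the right legs, whereas the design text has the right tendon cut and names the left legs as controls. Directions below are therefore given by leg side, as left minus right, and neither leg is called the operated one. The other groups used were left and right legs of other tenotomy animals at day 2 (10 arrays, 5 animals with both legs) and at day 14 (10 arrays, 4 animals with both legs). No animal was shared between the days. Further groups were the legs of mice whose right hindlimb was held in a cast (day 7, 15 arrays, 7 animals with both legs), 7 sham-operated muscles at day 7, and 7 muscles of naive mice. All sham and naive muscles were right legs. The tenotomy, casting and sham animals were numbered as separate cohorts, so cohort and treatment cannot be told apart in comparisons between them.

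The gastrocnemius pulls on the heel through the Achilles tendon, and without the tendon its fibres no longer work against load. Muscle that loses its load is known to lose fibre protein through ubiquitin ligases, the proteasome and autophagy, and to change its slow fibre and mitochondrial genes. Injured tendon draws in macrophages, and its fibroblasts and tendon cells divide and build a scar of collagens and matricellular proteins that metalloproteinases remodel. Each array held RNA of a whole muscle, so fewer cells of a type and less RNA per cell cannot be told apart.

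The labelled tissue carried its markers. All 16 skeletal fibre genes checked passed the filter on low signals, and myoglobin (Mb), the oxygen store of the fibre, averaged a signal of 10400 ± 2241 in left legs and 7239 ± 922 in right legs (SD, n = 7 each). The median signal of the 14 arrays lay between 18.53 and 25.49. Over all 111 arrays of the series, log2 signals correlated with each other at 0.9069 to 0.9809, with 0 identical arrays. The root mean square distance from the naive mean over all tested genes was 0.51 ± 0.0246 on the log2 scale in left legs and 0.663 ± 0.0769 in right legs, against 0.456 ± 0.0295 in sham muscles (SD, n = 7 each). It was smaller in the left leg in 7 of 7 animals (exact sign-flip permutation test, two-sided p = 0.0156, the smallest that 7 pairs allow). One sign of RNA quality moved with the leg. The log2 ratio of the 3′ to the 5′ beta-actin control probe sets was -0.375 ± 0.318 in left legs and 0.115 ± 0.474 in right legs, against -1.27 ± 0.202 in sham and -1.19 ± 0.083 in naive muscles (SD, n = 7 each). It was lower on the left in 6 of 7 animals (exact sign-flip test, two-sided p = 0.0469). The same ratio for Gapdh averaged -0.278 in left legs and -0.29 in right legs (exact sign-flip p = 0.625), against -0.179 in sham and -0.188 in naive muscles. The beta-actin call held without animal 25 and ended when any other 1 animal was left out, with differences between -0.594 and -0.332. Its part in the results below was not tested beyond a fit with this ratio as a covariate. Animal 22 had the smallest mean difference between its legs in the lists of collagens, matricellular genes, macrophage markers and cell cycle genes. Its mean difference was the largest of the 7 animals for slow fibre genes (1.42) and for fatty acid genes (0.72).

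Promoter windows of 4 genes at the extremes of the comparison are shown first, because the metalloproteinase genes Mmp13 and Mmp3 and the sarcomere genes Myl3 and Actc1 hold the letters of a known regulatory motif there. The sequences are the 250 bases before the gene start on the gene's own strand, from RefSeq on build GRCm38.p6. Capitals mark the motif, which is TGANTCA, the AP-1 site, in Mmp13 (chr9:7272264-7272513, plus strand, 35 bases before the start) and Mmp3 (chr9:7445572-7445821, plus strand, 46 bases before the start). In Myl3 (chr9:110763428-110763677, plus strand, 85 bases before the start) and Actc1 (chr2:114052876-114053125, minus strand, 47 bases before the start) they mark the CArG box, the site of serum response factor.
Mmp13: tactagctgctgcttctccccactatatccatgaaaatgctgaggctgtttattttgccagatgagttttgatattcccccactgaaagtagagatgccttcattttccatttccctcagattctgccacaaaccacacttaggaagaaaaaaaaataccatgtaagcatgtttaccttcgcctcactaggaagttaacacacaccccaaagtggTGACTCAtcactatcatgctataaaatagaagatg
Mmp3: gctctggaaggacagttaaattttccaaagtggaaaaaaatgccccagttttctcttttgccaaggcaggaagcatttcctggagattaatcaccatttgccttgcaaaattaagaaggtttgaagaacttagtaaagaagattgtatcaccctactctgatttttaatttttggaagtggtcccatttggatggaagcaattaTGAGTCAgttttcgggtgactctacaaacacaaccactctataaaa
Myl3: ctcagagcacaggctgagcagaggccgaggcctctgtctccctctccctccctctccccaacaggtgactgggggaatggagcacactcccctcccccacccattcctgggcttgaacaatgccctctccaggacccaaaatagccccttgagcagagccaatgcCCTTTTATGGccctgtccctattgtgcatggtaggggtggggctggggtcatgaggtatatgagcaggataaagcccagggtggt
Actc1: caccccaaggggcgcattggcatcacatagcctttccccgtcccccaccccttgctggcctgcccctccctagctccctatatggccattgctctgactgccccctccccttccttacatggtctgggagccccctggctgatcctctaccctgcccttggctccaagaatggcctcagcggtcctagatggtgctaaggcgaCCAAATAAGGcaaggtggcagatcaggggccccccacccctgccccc
Both strands were searched. Of the 12 genes lowest on the left 7 had a window, and of the 12 highest 9 did. The AP-1 letters were in 2 of these 7 genes and in 0 of these 9, against 6.75% of all 32851 windows. The CArG box was in 0 of 7 and 2 of 9 of these genes, against 1.47% of all windows. The MEF2 site was in 0 of 7 and 0 of 9, against 2.92% of all windows. The shares over all windows count windows rather than genes. A match describes the letters and does not show that a factor binds there.

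At day 7 the left legs differed from the right legs in both directions, and the large differences were mostly lower on the left. Genes of the extracellular matrix, its proteases, macrophages and dividing cells were lower there, while genes of slow and cardiac light chains, cardiac actin and mitochondrial metabolism were higher. With limma at an adjusted p under 0.05, 2334 of 16028 tested genes were higher on the left (14.6%) and 2941 were lower (18.3%). Of these, 71 higher and 701 lower genes differed by more than 1 on the log2 scale, while the median difference over all tested genes was 0.002. With the beta-actin ratio as a covariate the counts were 1857 higher and 2473 lower. The shares of 14.6% higher and 18.3% lower stand beside every list count between the legs below. Counts near them are not read as results about a list.

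**Figure D1:**
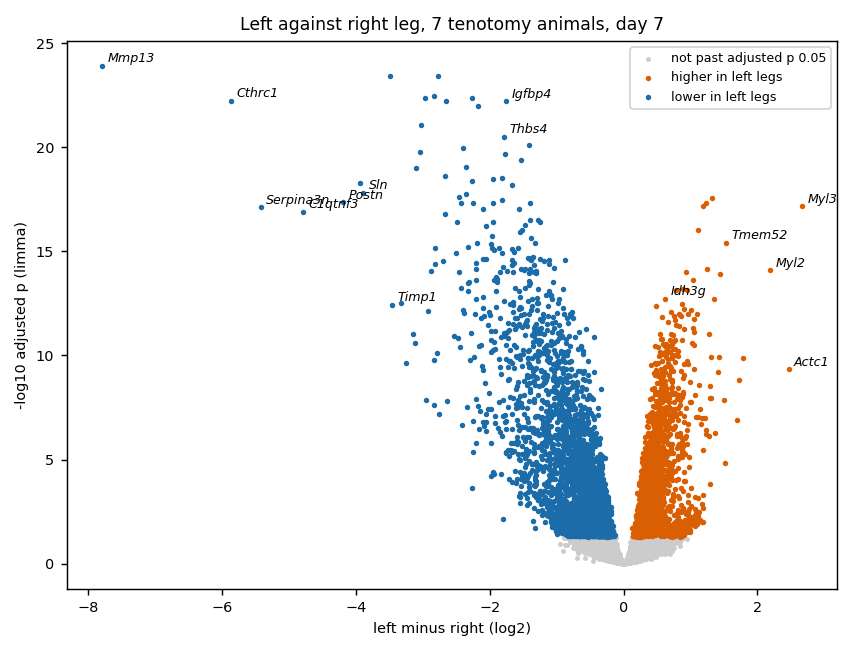
Each point is a tested gene, placed by its difference between left and right legs at day 7 (left minus right, log2 of signal plus pseudocount, x axis) and by its adjusted p from limma (y axis, minus log10), with 14 genes named. The differences reach further below zero than above it, with Mmp13 at -7.80 and Myl3 at 2.67.

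Proteases that cut the matrix were lower on the left together with an inhibitor. The largest difference of all was that of Mmp13, collagenase 3, which cuts fibrillar collagen. Its signal was 0.249, 0.69 and 8.47 in left legs and 481, 1192 and 2689 in right legs, at the lowest, median and highest of each. The legs did not overlap, and every left array was at or below the array's 40th percentile, so that the level on the left is only bounded and the right legs were at least 89.6-fold higher (fitted difference -7.80, SE 0.50, limma adjusted p = 1.21e-24). Mmp3, stromelysin 1, which activates other metalloproteinases, had 9.23, 12.4 and 20.4 in left legs and 183, 276 and 506 in right legs. It also did not overlap (difference -3.93, SE 0.32, adjusted p = 5.24e-19). Timp1, an inhibitor of these proteases, had 15, 28.8 and 38.8 in left legs and 88.2, 368 and 735 in right legs, again without overlap (-3.46, SE 0.37, adjusted p = 3.63e-13).

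Of 26 tested metalloproteinases and their inhibitors, 21 were lower on the left and 1 was higher, with a median difference of -1.18. In 15 the left leg was lower in 7 of 7 animals, against 10.4% of all tested genes, and in 13 the 2 legs did not overlap, against 6.46% of all tested genes. Adam12, a protease of activated mesenchymal cells, averaged 16.5 ± 8.97 in left legs and 197 ± 127 in right legs, with a difference of -3.12 (adjusted p = 2.66e-11). Mmp9, a gelatinase of leukocytes, averaged 30.9 ± 7.17 in left legs and 99.2 ± 35.3 in right legs, and Mmp10, stromelysin 2, averaged 7.95 ± 8.36 in left legs and 47.1 ± 17.6 in right legs. Their differences were -1.53 and -2.24 (adjusted p = 2.2e-06 and 1.23e-10). The exception was Timp4, an inhibitor of muscle and heart, named after its value was seen: it averaged 270.2 ± 132 in left legs and 103 ± 34.6 in right legs, a difference of 1.27 (adjusted p = 7.66e-07, higher in 7 of 7 animals). Mmp8, Mmp16, Timp3 and Adamts1 did not pass the test, with differences of -0.13, -0.12, 0.10 and 0.27. Adamts1 passed it after quantile normalization (adjusted p = 0.043), with array weights (0.0415), with the beta-actin covariate (0.0445) and without animal 20 (0.36, adjusted p = 0.0359).

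Matricellular proteins, which sit in the matrix and steer the cells that repair it, were nearly all lower on the left. Of 27 tested genes of matricellular proteins and matrix assembly, 25 were lower and 0 higher, with a median difference of -1.78. In 7 of 7 animals 25 were lower, against 10.4% of all tested genes. Periostin (Postn), secreted by activated fibroblasts, had 108, 176 and 257 in left legs and 607, 3587 and 6403 in right legs. No left leg reached the lowest right leg, which was that of animal 22, and the difference was -4.19 (SE 0.36, adjusted p = 4.39e-18). Cthrc1, a secreted protein with collagen triple helix repeats, had 0.871, 10.6 and 15.8 in left legs and 184, 642 and 1935 in right legs, without overlap (-5.87, SE 0.41, adjusted p = 6.01e-23). Lox, the oxidase that crosslinks collagen, averaged 108 ± 42.7 in left legs and 1257 ± 485 in right legs, and Thbs2, thrombospondin 2, averaged 71.4 ± 38 in left legs and 665 ± 444 in right legs. Their differences were -3.50 and -3.10 (adjusted p = 3.73e-24 and 9.68e-20). P4ha1 and P4ha2, subunits of the enzyme that hydroxylates collagen prolines, did not pass the test (-0.12 and -0.04).

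**Figure D2:**
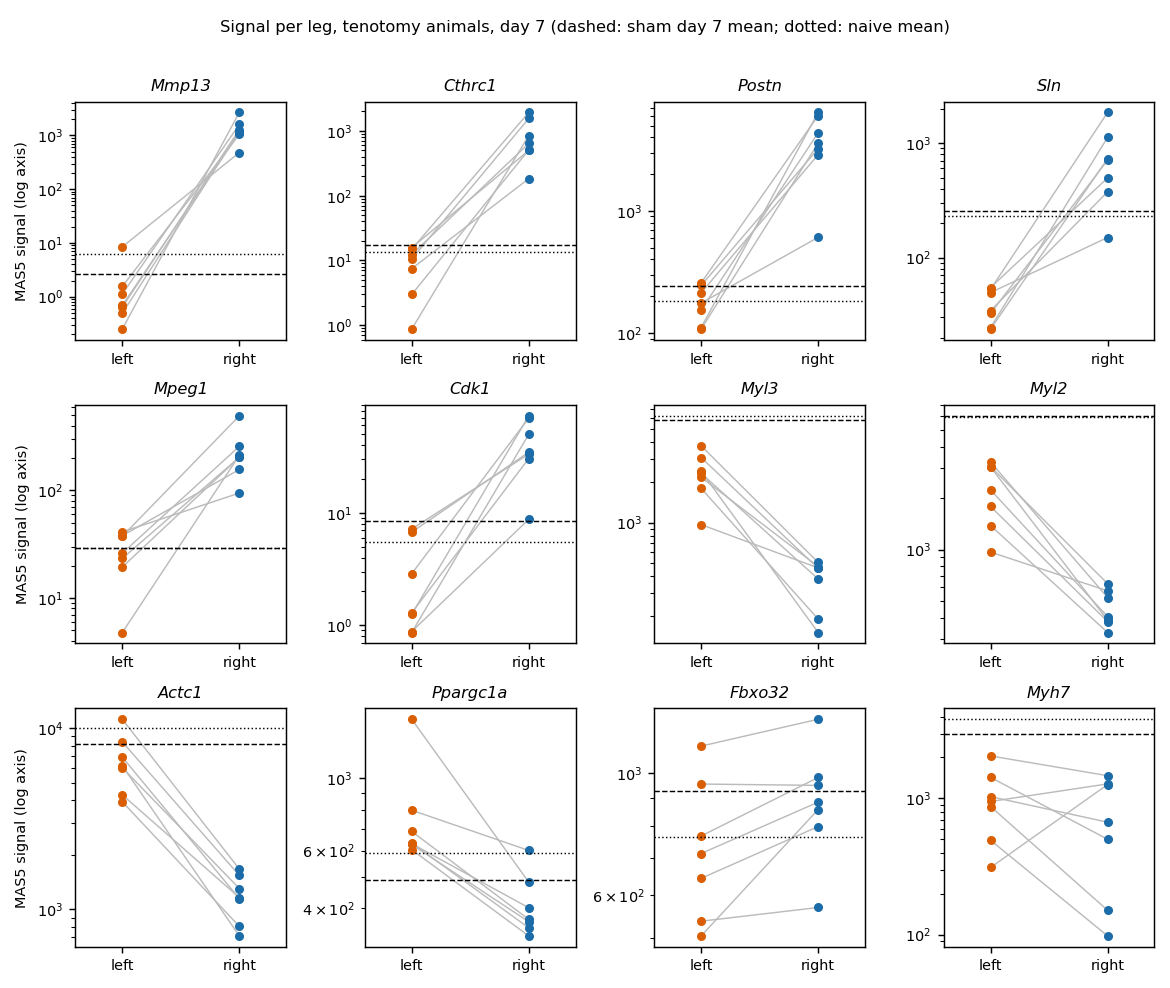
Signals of 12 genes in the left and right leg of each animal (1 line per animal, log axis), with the mean of the 7 sham muscles as a dashed line and that of the 7 naive muscles as a dotted line. The left legs lie below the right legs for Mmp13, Cthrc1, Postn and Sln and above them for Myl3, which reached 3751 at most and 966 at least in left legs against 504 at most in right legs.

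Collagen genes followed the same direction. Of 20 tested collagens, 18 were lower on the left and 1 was higher, with a median difference of -1.45. Col5a2, which joins type I fibrils and sets their width, had 246, 441 and 520.1 in left legs and 1061, 2574 and 4356 in right legs, without overlap (-2.68, SE 0.22, adjusted p = 2.31e-19). Col12a1 and Col14a1, which coat fibrils, differed by -2.46 and -2.44, and the short-chain Col8a1 by -2.40. The main scar collagen Col1a1 averaged 2949 ± 1550 in left legs and 6591 ± 1126 in right legs (-1.37, adjusted p = 3.08e-05), and Col3a1 averaged 3539 ± 1060 in left legs and 9215 ± 968 in right legs (-1.42, adjusted p = 6.14e-11). Col22a1, a collagen of the junction between muscle and tendon, went the other way. It averaged 148 ± 21.4 in left legs and 63.7 ± 34.5 in right legs and rose by 1.29 on the left (adjusted p = 1.13e-08, higher in 7 of 7 animals). The basement membrane collagen Col4a2 did not pass the test (-0.28).

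Markers of the cells that make matrix were lower on the left as well. Of 15 fibroblast markers 13 were lower and 0 higher (median difference -1.35), and of 14 tendon cell markers 11 were lower and 0 higher (median -1.22). Pi16, a marker of fibroblast progenitors, averaged 139.6 ± 47.1 in left legs and 673 ± 297 in right legs (-2.21, adjusted p = 3.47e-15), and the fibroblast surface protease Fap averaged 126 ± 16.4 in left legs and 415 ± 135 in right legs (-1.64, adjusted p = 1.05e-15). The microfibril protein gene Mfap4 had 3.14, 48.8 and 136 in left legs and 119, 419 and 1071 in right legs. Its legs overlapped although it was lower on the left in 7 of 7 animals (-3.25, SE 0.42, adjusted p = 2.36e-10). Among tendon cell markers Tnc, tenascin C, averaged 88.3 ± 34.1 in left legs and 714 ± 437 in right legs, and the cartilage and tendon protein Comp averaged 130 ± 52.8 in left legs and 750.1 ± 319 in right legs. Cilp, a matrix protein of cartilage and tendon, averaged 478 ± 168 in left legs and 2457 ± 772 in right legs. Thbs4, thrombospondin 4, averaged 1187 ± 289 in left legs and 4043 ± 794 in right legs. The differences of Tnc, Comp, Cilp and Thbs4 were -2.82, -2.50, -2.36 and -1.78 (adjusted p = 4.12e-15, 1.2e-15, 1.86e-18 and 3.25e-21). C1qtnf3, a secreted protein of cartilage and mesenchymal cells, had 3.75, 6.74 and 14.6 in left legs and 63.8, 334 and 1715 in right legs, a difference of -4.79 (SE 0.42, adjusted p = 1.27e-17).

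The size of the matrix difference varied between animals. The mean over the matricellular genes, relative to naive, was -0.22 ± 0.38 in left legs and 1.73 ± 0.54 in right legs, against 0.02 ± 0.26 in sham muscles (SD, n = 7 each, log2). Within animals this mean differed by between -2.66 (animal 23) and -0.81 (animal 22). For collagens the difference within animals ran between -2.11 (animal 23) and -0.39 (animal 22), and for tendon cell markers between -2.25 (animal 26) and -0.23 (animal 22).

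**Figure D3:**
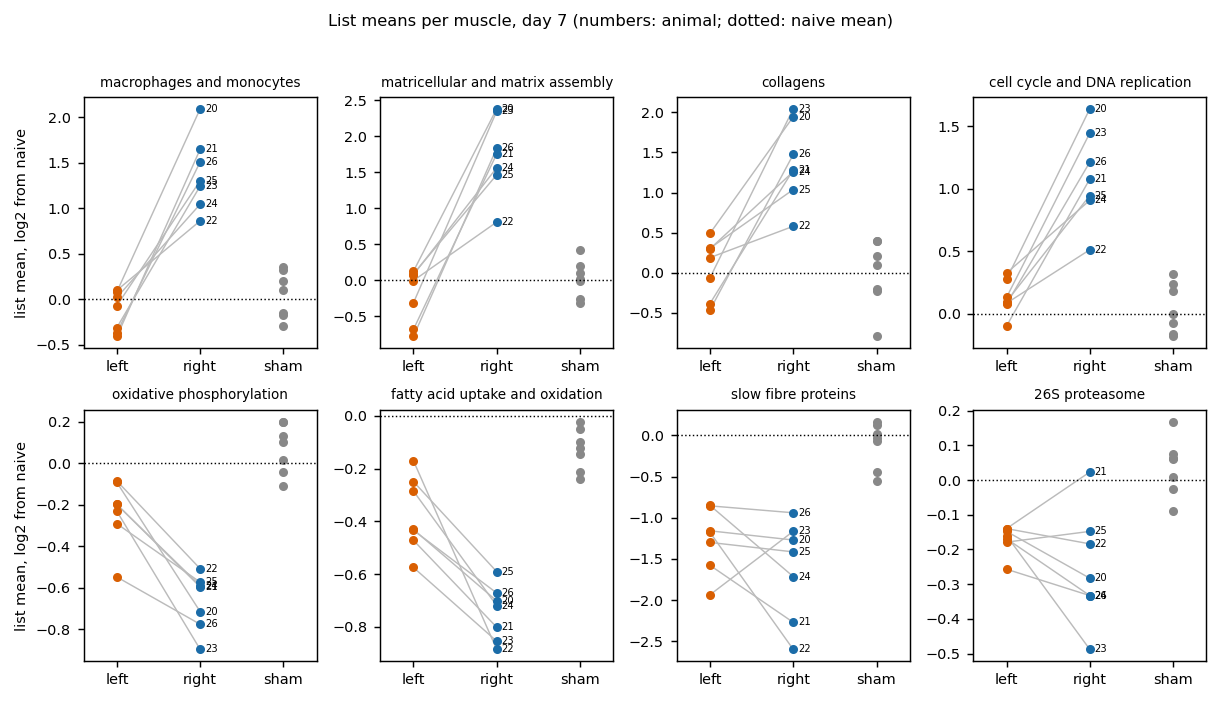
Mean of 8 gene lists in each left leg, right leg and sham muscle at day 7, as log2 difference from the naive mean, with the animal number beside each right leg. For macrophage genes the left legs average -0.14 ± 0.22 and the right legs 1.38 ± 0.41, against 0.05 ± 0.26 in sham muscles, and for oxidative phosphorylation the means are -0.24 ± 0.16 and -0.67 ± 0.14, against 0.07 ± 0.12 (SD).

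Macrophage genes were lower in the left legs. Of 26 tested macrophage and monocyte markers 24 were lower and 0 higher, with a median difference of -1.59. The left leg was lower in 7 of 7 animals in 23 of them, against 10.4% of all tested genes. In 21 the legs did not overlap, against 6.46% of all tested genes. Mpeg1, a pore-forming protein of macrophages, had 4.77, 26 and 41.1 in left legs and 94.3, 203 and 493 in right legs (-2.92, SE 0.32, adjusted p = 7.63e-13). Lgals3, galectin 3, had 59.8, 67.1 and 85.1 in left legs and 213, 537 and 786 in right legs (-2.83, SE 0.27, adjusted p = 6.91e-16). Neither gene overlapped between the legs. Ms4a7, a membrane protein of macrophages, averaged 25.1 ± 5.84 in left legs and 134 ± 69.3 in right legs, and the endosomal protein Cd68 averaged 37.2 ± 10.8 in left legs and 124 ± 51.1 in right legs (-2.13 and -1.58, adjusted p = 3e-11 and 2.92e-08). Aif1, a calcium-binding protein of macrophages, differed by -2.03. Msr1 and Trem2, a scavenger receptor and a lipid receptor of macrophages, did not pass the test (-0.18 and -0.01), although Msr1 did when the mean of its probe sets was used (-0.80, adjusted p = 0.00249). Within animals the list mean differed by between -2.06 (animal 21) and -0.76 (animal 22).

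Signals that attract these cells moved in the same direction. Ccl8, a monocyte attractant, had 23.2, 37.4 and 74 in left legs and 147, 396 and 985 in right legs (-3.15, SE 0.37, adjusted p = 8.9e-12). Ccr2, the receptor of inflammatory monocytes, averaged 22.8 ± 6.32 in left legs and 175 ± 59.4 in right legs (-2.71, adjusted p = 3e-15). Ccl12, a ligand of Ccr2, was at or below the 40th percentile on every left array and at least 3.79-fold higher in right legs (adjusted p = 1.34e-08). Cx3cr1, the fractalkine receptor, differed by -2.01. Of 30 tested chemokines and cytokines 18 were lower and 1 was higher (median -0.92). The higher one, named after its value was seen, was the eosinophil attractant Ccl11, with 121 ± 24.3 in left legs and 89.5 ± 19.7 in right legs (0.43, adjusted p = 0.0316), and its call ended without animal 20, 23, 24 or 25 (adjusted p = 0.0744, 0.096, 0.0672 and 0.0957).

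All 7 genes of class II antigen presentation were lower on the left, with a median of -1.94. H2-Eb1, a class II beta chain, averaged 185 ± 44.1 in left legs and 859 ± 415 in right legs, and Cd74, the chain that escorts class II molecules, averaged 446 ± 139 in left legs and 1974 ± 809 in right legs (-2.10 and -2.11, adjusted p = 5.05e-13 and 2.38e-15). Of 14 complement genes 11 were lower and 0 higher (median -1.35). C1qa, C1qb and C1qc, the chains of C1q, which starts the classical pathway, differed by -1.93, -1.76 and -1.72 (adjusted p = 6.74e-12, 3.2e-11 and 1.84e-10). Interferon-response genes differed less, with 17 of 21 lower, 0 higher and a median of -0.57. Oas1a, an antiviral sensor of double-stranded RNA, averaged 42.4 ± 13.9 in left legs and 102 ± 21.2 in right legs (-1.22, adjusted p = 3.16e-07).

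Lysosomal genes were mostly lower on the left. Of 29 tested, 20 were lower, against 18.3% of all tested genes, and 3 were higher, against 14.6%, with a median of -0.62. Cathepsin K (Ctsk), a collagen-degrading protease, had 32.2, 56.6 and 88.9 in left legs and 233, 454 and 821 in right legs, without overlap (-3.02, SE 0.22, adjusted p = 8.44e-22). Cathepsin S (Ctss), which trims the class II invariant chain, averaged 141 ± 26.8 in left legs and 619 ± 167 in right legs (-2.06, adjusted p = 2.38e-15). The 3 higher genes, named after their values were seen, were Ctse, Ctsd and Tpp1, all proteases, with differences of 0.52, 0.22 and 0.19 (adjusted p = 0.0133, 0.0368 and 0.0151). The Ctse call ended without animal 23 (adjusted p = 0.0724) and with probe set means (0.30, adjusted p = 0.181). That of Ctsd ended without animal 20, 22, 23, 24 or 25 (adjusted p up to 0.186), without a block (0.0537), in the fit of the 14 arrays with the replicate block (0.104), after quantile normalization (0.07, adjusted p = 0.488) and with the beta-actin covariate (0.10, adjusted p = 0.43). That of Tpp1 ended without animal 24 or 25 (adjusted p = 0.116 and 0.0703), in the fit of the 14 arrays with the replicate block (0.128) and after quantile normalization (0.0663). Cathepsin L (Ctsl), known to rise in wasting muscle, averaged 938 ± 109.8 in left legs and 1255 ± 395 in right legs (-0.37, adjusted p = 0.000894), and its call ended when the mean of its probe sets was used (-0.14, adjusted p = 0.319).

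Genes of dividing cells were lower on the left. Of 37 cell cycle and DNA replication genes 27 were lower and 1 was higher, with a median of -0.94. Top2a, the topoisomerase of dividing cells, averaged 14.2 ± 9.14 in left legs and 67.6 ± 27.7 in right legs (-2.07, adjusted p = 2.09e-09), and Mki67, the proliferation marker, averaged 21.6 ± 7.36 in left legs and 94.5 ± 39.5 in right legs (-1.88, adjusted p = 2.91e-07). Birc5 and Cdk1, regulators of mitosis, were at or below the 40th percentile on all 7 left arrays and at least 2.97-fold and 2.66-fold higher in right legs (adjusted p = 1.66e-10 and 1.62e-08). The exception, named after its value was seen, was the mitotic kinase gene Aurka, with a difference of 0.55 (adjusted p = 0.000742). The cell cycle inhibitor Cdkn1a averaged 118 ± 27.7 in left legs and 196 ± 85.5 in right legs (-0.62, adjusted p = 0.0339). Its call ended without animal 20, 23 or 26 (adjusted p = 0.117, 0.187 and 0.102), with probe set means (-0.44, adjusted p = 0.137), without a block (0.0541) and with the beta-actin covariate (0.0567).

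Single genes of stress and growth signalling were also among the lowest on the left. Serpina3n, a secreted protease inhibitor of the acute phase, had 2.01, 4.11 and 10.6 in left legs and 252, 322 and 625 in right legs. All left arrays were at or below the 40th percentile, and the right legs were at least 26-fold higher (fitted difference -5.42, SE 0.47, adjusted p = 7.57e-18). Serpinb1a, an inhibitor of leukocyte proteases, averaged 19.4 ± 3.59 in left legs and 254 ± 107 in right legs, and the metal-binding Mt2 averaged 228 ± 85.1 in left legs and 1654 ± 546 in right legs (-3.33 and -2.84, adjusted p = 3.04e-13 and 2.3e-08). Runx1, a transcription factor known from leukocytes and from denervated muscle, averaged 18.8 ± 5.08 in left legs and 107 ± 70 in right legs (-2.11, adjusted p = 3.29e-10).

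Of 28 growth factor and myostatin pathway genes 10 were lower on the left and 3 were higher, against 18.3% and 14.6% of all tested genes, with a median of -0.10. Myostatin itself (Mstn) had no probe set assigned to it as a single gene, so it was not tested. Igfbp4, which binds insulin-like growth factors, averaged 1189 ± 214 in left legs and 4083 ± 958 in right legs (-1.76, adjusted p = 6.3e-23), Igf1 averaged 509 ± 145 in left legs and 1148 ± 429 in right legs (-1.14, adjusted p = 4.48e-07), and the myostatin antagonist follistatin (Fst) averaged 37.8 ± 12.2 in left legs and 118 ± 42.3 in right legs (-1.52, adjusted p = 4.25e-12). The receptor Tgfbr2 differed by -1.06 (adjusted p = 3.06e-14). The 3 higher genes, named after their values were seen, were the insulin receptor substrates Irs1 and Irs2 and the transcription factor Foxo4, with differences of 0.88, 0.51 and 0.40. Foxo1, which drives ubiquitin ligase genes in wasting muscle, averaged 209.6 ± 49 in left legs and 189 ± 40.8 in right legs (0.14, adjusted p = 0.466).

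Sarcolipin (Sln), a small peptide that inhibits the calcium pump of the sarcoplasmic reticulum, was the single one of 17 slow fibre genes that was lower on the left. It had 23.7, 34.4 and 54.7 in left legs and 149.6, 709 and 1851 in right legs, without overlap (-3.90, SE 0.32, adjusted p = 1.54e-18). Sham muscles averaged 254. The differences from sham were -2.47 in left legs (adjusted p = 1.88e-08) and 1.43 in right legs (adjusted p = 0.000287), in opposite directions.

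The genes that were highest on the left were sarcomere genes of slow or cardiac type. Myl3, the slow and ventricular essential light chain, had 966, 2335 and 3751 in left legs and 151, 455 and 504 in right legs (2.67, SE 0.23, adjusted p = 7.02e-18). Myl2, the matching regulatory light chain, had 966, 2232 and 3246 in left legs and 327, 405 and 632 in right legs (2.19, SE 0.22, adjusted p = 8.09e-15). Neither light chain overlapped between the legs. Both legs were below sham muscles, which averaged 5802 for Myl3 and 6052 for Myl2: the differences from sham were -1.36 and -1.51 for left legs and -4.03 and -3.70 for right legs. Actc1, cardiac actin, had 3924, 6203 and 11200 in left legs and 713, 1162 and 1669 in right legs (2.47, SE 0.32, adjusted p = 4.57e-10), again without overlap. Its difference from the sham mean of 8198 was -0.19 in left legs (adjusted p = 0.755) and -2.66 in right legs (adjusted p = 1.18e-10).

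Other slow fibre genes moved less evenly. Of 17, 8 were higher on the left, with a median of 0.34, and that count was 4 without animal 22, 5 without animal 24, 5 with array weights and 5 in a fit of the 14 arrays with the animal as a fixed replicate block. Myoz2, a calcineurin-binding protein of the Z disc, averaged 1435 ± 561 in left legs and 584 ± 125 in right legs (1.22, adjusted p = 1.07e-07, higher in 6 of 7 animals). The slow myosin heavy chain Myh7 averaged 1020 ± 583 in left legs and 776 ± 564 in right legs and did not pass the test (0.71, adjusted p = 0.0982). It passed without animal 23 (1.16, adjusted p = 0.00663) or animal 25 (0.90, adjusted p = 0.046). From the sham mean of 2977 it differed by -1.72 in left legs and -2.43 in right legs (adjusted p = 0.000124 and 8.56e-09).

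Genes of oxidative phosphorylation were higher on the left. Of 46 tested subunits 43 were higher and 0 lower, with a median of 0.46, and 35 were higher in 7 of 7 animals, against 8.59% of all tested genes. Cox7a1, the muscle form of a cytochrome oxidase subunit, had 3902, 4510 and 4967 in left legs and 2331, 2715 and 3093 in right legs, without overlap (0.70, SE 0.08, adjusted p = 9.09e-12). Ndufa8, a subunit of complex I, averaged 3340 ± 268 in left legs and 2169 ± 239 in right legs (0.62, adjusted p = 3.72e-11), and Uqcrc1, of complex III, averaged 5027 ± 809 in left legs and 3154 ± 432 in right legs (0.67, adjusted p = 7.04e-07). With the beta-actin ratio as a covariate 26 of the 46 were higher.

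The pathways that feed the respiratory chain moved with it. Of 19 tricarboxylic acid cycle genes 16 were higher on the left and 0 lower (median 0.49), and of 22 genes of fatty acid uptake and oxidation 19 were higher and 0 lower (median 0.39). Idh3g, a subunit of isocitrate dehydrogenase, averaged 3165 ± 166 in left legs and 2078 ± 275 in right legs (0.62, adjusted p = 1.91e-13), and Got2, the mitochondrial aspartate transaminase, averaged 3965 ± 476 in left legs and 2598 ± 178 in right legs (0.60, adjusted p = 5.81e-08). Fabp3, the fatty acid carrier of muscle, had 3044, 3989 and 5179 in left legs and 2013, 2548 and 2910 in right legs (0.66, SE 0.13, adjusted p = 1.28e-05). Eci1, an isomerase of fatty acid oxidation, differed by 0.57 (adjusted p = 8.85e-10). Ppargc1a, the coactivator of mitochondrial biogenesis, averaged 785 ± 329 in left legs and 413 ± 96.4 in right legs (0.87, adjusted p = 4.42e-06, higher in 7 of 7 animals), against 489 in sham muscles.

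Of 19 genes of glycolysis and glycogen 10 were higher on the left and 2 were lower, with a median of 0.36. The count of higher genes was 5 without animal 20, 5 without animal 21, 5 without animal 23, 4 with the beta-actin covariate, 6 after quantile normalization and 3 in the fit of the 14 arrays with the replicate block. The insulin-responsive glucose transporter Slc2a4 averaged 3256 ± 404 in left legs and 2109 ± 276 in right legs (0.63, adjusted p = 7.66e-11), and the muscle hexokinase Hk2 averaged 2537 ± 160.2 in left legs and 1706 ± 299.8 in right legs (0.59, adjusted p = 1.61e-07). The 2 lower genes were Pgam1 and Hk1, the forms of phosphoglycerate mutase and hexokinase that many tissues share (-0.93 and -0.55, adjusted p = 1.36e-08 and 3.09e-06).

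Abundant fibre proteins differed less, and their counts changed when single animals were left out. Of 21 fast fibre genes 7 were higher on the left and 0 lower (median 0.35). That count was 2 without animal 20, 3 without animal 21, 2 without animal 23, 13 without animal 26, 4 after quantile normalization, 2 in the fit of the 14 arrays with the replicate block and 0 with the beta-actin covariate. Of the 16 skeletal fibre markers 8 were higher and 0 lower (median 0.36), and the count was 3 without animal 20, 3 without animal 21, 3 without animal 23, 3 after quantile normalization, 5 without the filter on low signals, 4 without a block, 3 with the replicate block in the 14 arrays, and 1 with the beta-actin covariate. Myh2, the myosin heavy chain of fast oxidative fibres, averaged 11600 ± 2673 in left legs and 7643 ± 1685 in right legs (0.60, adjusted p = 0.00321), and Casq1, the calcium store of fast fibres, averaged 9433 ± 1956 in left legs and 6423 ± 1141 in right legs (0.54, adjusted p = 0.00135). Both calls ended with the beta-actin covariate (0.30 and 0.20, adjusted p = 0.176 and 0.21). The myosins of the fastest fibres, Myh1 and Myh4, differed by 0.37 and 0.33 (adjusted p = 0.0324 and 0.192). The Myh1 call ended without animal 20, 21, 22 or 23 (adjusted p = 0.0974, 0.0865, 0.125 and 0.0569) and with the replicate block in the 14 arrays (0.0543). It also ended after quantile normalization (0.03, adjusted p = 0.759) and with the beta-actin covariate (0.12, adjusted p = 0.587). The Myh4 difference was -0.01 after quantile normalization and -0.15 with the beta-actin covariate.

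**Figure D4:**
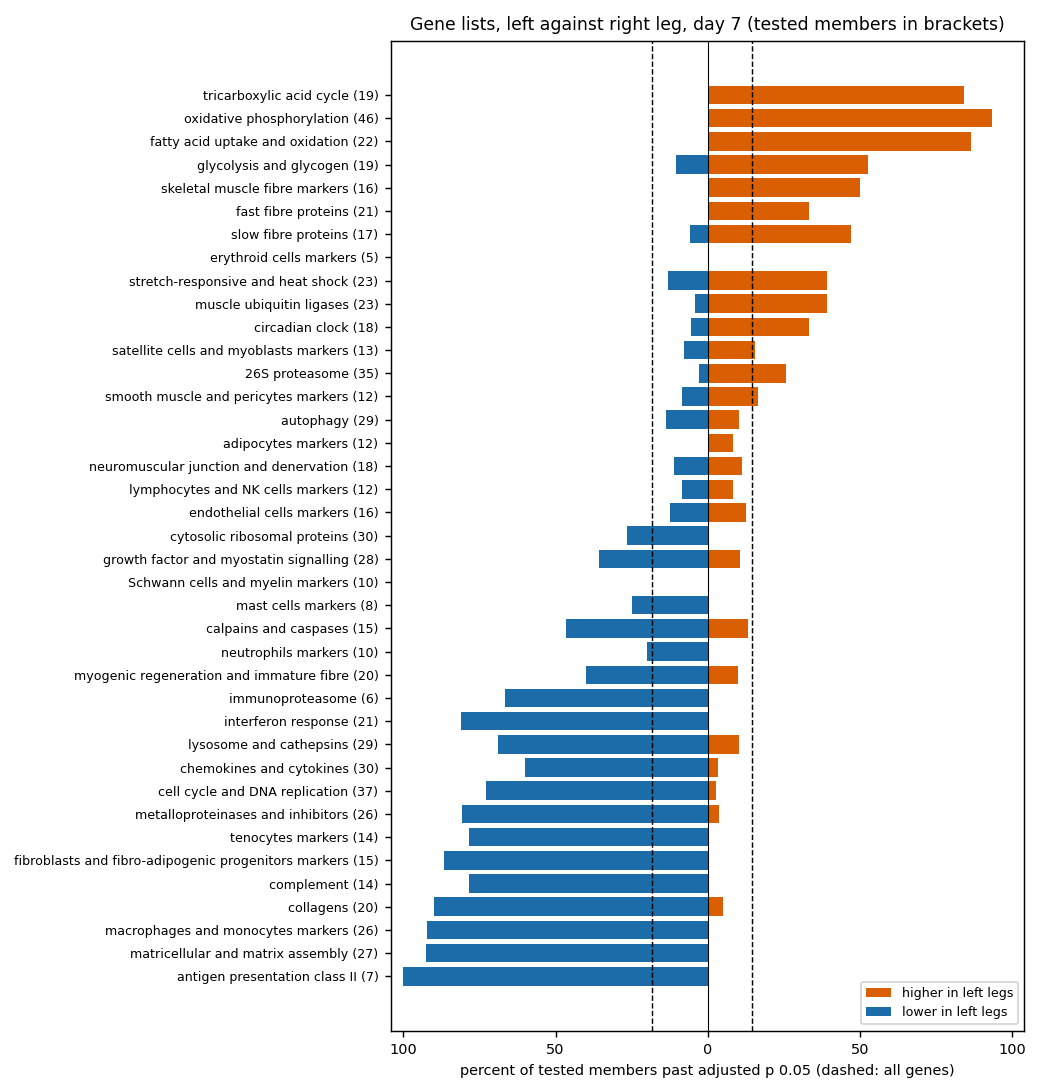
Percent of the tested members of each gene list that were higher on the left (right-hand bars) or lower on the left (left-hand bars) at day 7, at a limma adjusted p under 0.05, with the shares among all tested genes (14.6% higher, 18.3% lower) as dashed lines. Matrix, immune and cell cycle lists extend to the lower side, as 25 of 27 matricellular genes do, and mitochondrial lists to the higher side, as 43 of 46 oxidative phosphorylation genes do.

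The genes best known from muscle wasting showed small differences between the legs. Fbxo32, atrogin-1, had 505, 714 and 1121 in left legs and 569, 886 and 1255 in right legs, with overlap (-0.28, SE 0.22, adjusted p = 0.363), and passed the test in the fit of the 14 arrays with the replicate block (adjusted p = 0.0407). Trim63, MuRF1, had 1462, 1666 and 2466 in left legs and 1249, 1578 and 2183 in right legs (0.15, SE 0.15, adjusted p = 0.467). Of 23 muscle ubiquitin ligases 9 were higher on the left and 1 was lower (median 0.12), against 14.6% and 18.3% of all tested genes. Trim54, MuRF3, averaged 2558 ± 516 in left legs and 1717 ± 524 in right legs, and Fbxo31, an F-box protein, averaged 886 ± 50.8 in left legs and 623 ± 143 in right legs (0.60 and 0.54, adjusted p = 4.52e-06 and 2.55e-05). The lower one was Cblb, a ligase that acts on insulin receptor substrate (-0.41, adjusted p = 0.000804).

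Among all tested genes 14.6% were higher and 18.3% lower on the left, and list counts near these shares are not read as results. Of 35 subunits and activators of the 26S proteasome 9 were higher on the left and 1 was lower, with a median of 0.06. The 9 became 4 without animal 23, 5 after quantile normalization, 4 with the beta-actin covariate and 3 in the fit of the 14 arrays with the replicate block. Psmd8, a lid subunit, averaged 1782 ± 269 in left legs and 1076 ± 279 in right legs (0.75, adjusted p = 1.73e-08, higher in 7 of 7 animals). The lower subunit, named after its value was seen, was Psmc2 (-0.22, adjusted p = 0.0241), whose call ended without animal 21, 22, 24 or 25 (adjusted p = 0.08, 0.0517, 0.143 and 0.0584), in the fit of the 14 arrays with the replicate block (0.117) and with probe set means (-0.09, adjusted p = 0.342). The ubiquitin receptor Psmd4 differed by -0.15 (adjusted p = 0.188), but passed the test after quantile normalization (-0.20, adjusted p = 0.0405) and with the beta-actin covariate (-0.22, adjusted p = 0.0485), and was at 0.18 with probe set means (adjusted p = 0.448). The immunoproteasome subunit Psmb8, which interferon raises, averaged 54 ± 14.1 in left legs and 91.9 ± 37 in right legs (-0.67, adjusted p = 0.000678), and 4 of 6 genes of that list were lower on the left. Of 29 autophagy genes 3 were higher and 4 lower (median 0.01), against 14.6% and 18.3% of all tested genes. The initiating kinase Ulk1 was among the higher ones (0.34, adjusted p = 0.00545). Of 30 cytosolic ribosomal proteins 8 were lower on the left and 0 higher (median -0.09), with Rps19 and Rps25 at -0.36 and -0.44, and 21 were lower after quantile normalization, 4 with the replicate block in the 14 arrays and 15 with the beta-actin covariate. Of 15 calpains and caspases 7 were lower and 2 higher (median -0.23), among them the inflammatory caspases Casp1 and Casp4 (-0.86 and -1.12).

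Of 23 stretch-responsive and heat shock genes 9 were higher on the left, against 14.6% of all tested genes, and 3 were lower, against 18.3% (median 0.23). Ankrd2, a stretch-responsive ankyrin repeat protein of slow muscle, had 505, 719 and 1505 in left legs and 221, 367 and 487 in right legs, without overlap (1.28, SE 0.29, adjusted p = 0.000146). Flnc, filamin C of the Z disc, averaged 1802 ± 376 in left legs and 1016 ± 292 in right legs (0.86, adjusted p = 0.00152). Ankrd1, a related protein of loaded and injured muscle, averaged 115 ± 25 in left legs and 67 ± 29.7 in right legs (0.81, adjusted p = 0.032). The Ankrd1 call ended without animal 20, 21, 22 or 25 (adjusted p = 0.0609, 0.069, 0.103 and 0.0595) and with probe set means (0.0559). The lower 3, named after their values were seen, were the chaperones Dnaja1, Hsp90aa1 and Dnajb1 (-0.56, -0.48 and -0.45). The Hsp90aa1 call ended with probe set means (-0.23, adjusted p = 0.254), with the beta-actin covariate (-0.22, adjusted p = 0.32) and without animal 20 (adjusted p = 0.0507). That of Dnajb1 ended without animal 20, 21, 23, 25 or 26 (adjusted p up to 0.115), after quantile normalization (0.0611), with the replicate block over all arrays (0.0511) and with the beta-actin covariate (0.133). Csrp3, a muscle LIM protein of the Z disc, averaged 1018 ± 394 in left legs and 799 ± 304 in right legs and did not pass the test (0.34, adjusted p = 0.527).

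More genes of immature fibres were lower than higher on the left. Of 20 tested, 8 were lower, against 18.3% of all tested genes, and 2 were higher, against 14.6% (median -0.34). The 8 became 4 without animal 20, 4 without animal 23, 4 without animal 26 and 5 with the beta-actin covariate. The perinatal myosin Myh8 had 11, 26.7 and 34.5 in left legs and 19.7, 149.5 and 290.4 in right legs, and was lower on the left in 5 of 7 animals (-1.72, SE 0.32, adjusted p = 6.48e-06). Myog, a regulator of myoblast differentiation that also rises with denervation, averaged 55.5 ± 10.6 in left legs and 102 ± 34.9 in right legs (-0.79, adjusted p = 4.2e-05). The embryonic myosin Myh3 did not pass the test (-0.38, adjusted p = 0.45). Against 14.6% of all tested genes higher and 18.3% lower, the 18 genes of the neuromuscular junction and of denervation had 2 higher and 2 lower. These were Dok7, an activator of the receptor kinase MuSK (0.72, adjusted p = 1e-04), the deacetylase Hdac4 (0.34, adjusted p = 0.0275), Lrp4, the agrin receptor (-0.38, adjusted p = 0.0133), and Runx1. The Hdac4 call ended without animal 20, 21 or 25 (adjusted p = 0.0889, 0.0541 and 0.0523), with the beta-actin covariate (0.21, adjusted p = 0.238) and with array weights (0.0581). That of Lrp4 ended without animal 20 (adjusted p = 0.0584) and after quantile normalization (-0.27, adjusted p = 0.0926). Chrna1, a subunit of the acetylcholine receptor, did not pass the test (-0.30, adjusted p = 0.109).

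Other genes that were highest on the left had diverse roles. Prima1, which anchors acetylcholinesterase in the membrane, averaged 57.5 ± 15.7 in left legs and 15.6 ± 10.1 in right legs (1.78, adjusted p = 1.31e-10), against 63.2 in sham muscles. Cited4, a partner of the coactivators CBP and p300, averaged 325 ± 136 in left legs and 105 ± 80.1 in right legs (1.73, adjusted p = 1.51e-09). Nrep, known from regenerating nerve, averaged 1856 ± 220.4 in left legs and 687 ± 95.6 in right legs (1.43, adjusted p = 1.2e-10). The membrane protein gene Tmem52 and the methyltransferase gene Mettl21e differed by 1.52 and 1.50, Pm20d2, of the M20 peptidase family, by 1.43, and the transcripts BE949265 and 2310065F04Rik by 1.69 and 1.41. Each of these was higher in 7 of 7 animals. Cd27, a receptor of lymphocytes, was at or below the 40th percentile on every right array and at least 1.87-fold higher in left legs (adjusted p = 1.45e-05). Clock genes had 6 of 18 higher and 1 lower (median 0.10), against 14.6% and 18.3% of all tested genes. Tef, a clock output factor, was at 0.54 and Npas2, a partner of Bmal1, at -1.09 (adjusted p = 1.92e-05 and 0.000527).

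Markers of the remaining cell types differed less. Among all tested genes 14.6% were higher and 18.3% lower on the left. Counts near these shares are not read as results about a cell type. Of 12 adipocyte markers 1 was higher on the left, Plin4, a lipid droplet protein also present in muscle fibres (0.80, adjusted p = 2.93e-06), and 0 were lower. Endothelial markers had 2 higher and 2 lower of 16 (median -0.06), among them Aplnr, the apelin receptor (-1.15, adjusted p = 1.06e-05). Neutrophil markers had 2 of 10 lower, the granule protein Lcn2 and the receptor Csf3r (-1.81 and -0.93, adjusted p = 0.00742 and 0.0354). The Csf3r call ended without animal 20, 21, 23, 24 or 26 (adjusted p = 0.081, 0.0712, 0.0869, 0.131 and 0.0759), without a block (0.0508), with array weights (0.0892) and with the beta-actin covariate (0.0653). That of Lcn2 ended with a pseudocount of 16 (-1.01, adjusted p = 0.0643). Lcn2 was at or below the 40th percentile on all 7 left arrays, which gives at least 1.73-fold higher signals in right legs. Lymphocyte markers had 1 higher and 1 lower of 12, Ighm and Nkg7, of which Ighm differed by 0.96. Nkg7, a granule protein of cytotoxic cells, was at or below the 40th percentile on all 7 left and on 5 right arrays, so no fold is given for it. The Ighm call ended when the mean of its probe sets was used (0.11, adjusted p = 0.706). Mast cell markers had 2 of 8 lower, the protease Cma1 and the receptor Kit (-0.57 and -0.96). Of 13 satellite cell markers 2 were higher and 1 lower, the lower one being the adhesion molecule Vcam1 (-1.09, adjusted p = 2.42e-07). Of 12 smooth muscle and pericyte markers 2 were higher and 1 lower. Of 10 Schwann cell and 5 erythroid markers 0 passed the limma test, with 1 and 1 at an unadjusted p under 0.05. The commonly used reference gene Actb, a cytoskeletal actin, differed by -0.17 (adjusted p = 0.323), and was called lower on the left after quantile normalization (-0.29, adjusted p = 0.0333) and with probe set means (-0.28, adjusted p = 0.0409).

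Each leg was also set against the 7 sham muscles of day 7. In the right legs most macrophage and matrix genes were higher than in sham. The calls among these genes in the left legs were few and are not read as results about the lists. In left legs 1555 genes were higher than in sham (9.7% of those tested) and 1514 lower (9.45%), of which 75 and 50 differed by more than 1 on the log2 scale. In right legs 3773 were higher (23.5%) and 2836 lower (17.7%), of which 881 and 158 differed by more than 1. The left and right comparisons share the sham arrays. With the beta-actin covariate the right-leg counts were 2155 higher and 1604 lower, and the left-leg counts 1222 higher and 1182 lower. The list counts against sham that follow were not refitted with this covariate. Of the 26 macrophage markers 0 were higher and 2 lower in left legs than in sham, and 23 were higher and 0 lower in right legs. Of the 27 matricellular genes 1 was higher and 4 lower in left legs, and 24 higher and 0 lower in right legs. Of the 46 oxidative phosphorylation genes 0 were higher and 29 lower in left legs, and 0 higher and 43 lower in right legs. Of the 17 slow fibre genes 11 were lower than sham in left legs and 13 in right legs. Postn averaged 181 in left legs and 3873 in right legs, against 242 in sham muscles, and Mmp13 averaged 1.89 in left legs and 1347 in right legs, against 2.62. The Mmp13 signal was at or below the 40th percentile on all 7 left arrays. Its sham mean was under the lowest 40th percentile of any array (9.65), so neither mean is read as a level.

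The leg difference was then compared with that of other animals at day 2 and at day 14. Macrophage genes had their largest difference at day 2, collagenase and sarcolipin genes at day 7 or 14, and matricellular genes a similar one on each day. Day 7 minus day 2 was positive in 521 genes (3.25% of those tested) and negative in 216 (1.35%), and day 14 minus day 7 was positive in 5 (0.0312%) and negative in 7 (0.0437%). These 2 contrasts share the day 7 arrays. Macrophage markers had a median difference of -3.01 at day 2, -1.59 at day 7 and -1.10 at day 14, and day 7 minus day 2 was positive in 23 of the 26. Of the 29 lysosomal genes 16 had a positive and 1 a negative interaction. Mpeg1 differed by -5.59 at day 2, -2.92 at day 7 and -2.11 at day 14 (day 7 minus day 2 2.67, adjusted p = 0.000145). Chil3, a secreted lectin of macrophages, differed by -4.39 at day 2. It was at or below the 40th percentile on all 14 arrays of day 7 and all 10 of day 14, so no difference is given for those days. Its fitted change of day 7 minus day 2 was 3.48 (adjusted p = 0.01), and that call ended with a pseudocount of 1 (3.34, adjusted p = 0.0843).

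Some genes were lower on the left at day 2 and not called at day 7. Fosl1, a subunit of AP-1, differed by -2.86 at day 2, 0.16 at day 7 and -0.27 at day 14, the neuropeptide galanin (Gal) by -2.38, 0.44 and 0.69, and coagulation factor VII (F7) by -2.79 at day 2. F7 was at or below the 40th percentile on all 14 arrays of day 7 and all 10 of day 14, so no difference is given for those days. At day 7 Fosl1 was at or below that percentile on 5 of 7 left and 6 of 7 right arrays. Gal was so on 2 left and 5 right arrays, so the day 7 differences of both genes rest largely on low signals. Without animal 21 Gal was called higher on the left at day 7 (0.71, adjusted p = 0.0127). For Fosl1, Gal and F7 the fitted differences of day 7 minus day 2 were 3.02, 2.81 and 2.92 (adjusted p = 3.35e-05, 5.28e-09 and 2.34e-05). In other genes the leg difference, left minus right, was lower at day 7 than at day 2. Mmp13 differed by -1.91 at day 2, -7.80 at day 7 and -6.27 at day 14 (day 7 minus day 2 -5.89, adjusted p = 3.42e-08), and Mmp3 by -1.28, -3.93 and -2.47 (-2.65, adjusted p = 0.000148). Sln differed by -1.17, -3.90 and -4.43 on the 3 days (-2.72, adjusted p = 0.000113), Myh8 by 0.97, -1.72 and -0.76 (-2.69, adjusted p = 0.000119), and Crabp1, a retinoic acid carrier, by 0.35, -2.11 and -1.44 (-2.46, adjusted p = 3.84e-05). At day 7 Crabp1 was at or below the 40th percentile on all 7 left arrays, and right legs were at least 3.12-fold higher. For matricellular genes the median was -1.78, -1.78 and -1.51 at days 2, 7 and 14, and for oxidative phosphorylation genes 0.65, 0.46 and 0.39.

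**Figure D5:**
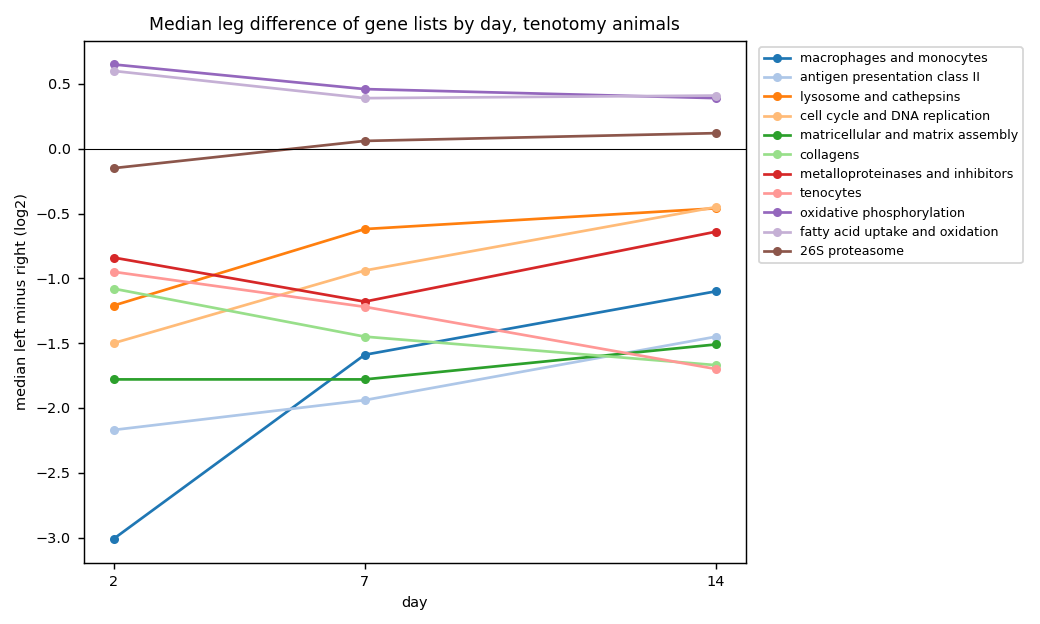
Median difference between left and right legs (left minus right, log2, y axis) over the tested members of 11 gene lists at days 2, 7 and 14 (x axis, to scale) in the tenotomy animals. The macrophage line is at -3.01, -1.59 and -1.10 on the 3 days, while the oxidative phosphorylation line stays above zero at 0.65, 0.46 and 0.39.

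Between day 7 and day 14 few genes passed the test. The 5 positive ones were Mmp10, with differences of -2.24 at day 7 and 0.10 at day 14, Mmp9 (-1.53 and 0.59), the cell adhesion molecule Chl1 (-2.44 and -0.72), the transcript C630043F03Rik (-0.16 and 0.76) and the mitochondrial ribosomal protein Mrpl40 (-0.05 and 0.48). The adjusted p-values of these were 0.00434, 0.00812, 0.043, 0.0266 and 0.0427. The most negative ones were the matrix protein Matn4 (-1.05 at day 7 and -3.0 at day 14), the secreted protein Crispld1 (0.29 and -1.35), Col22a1 (1.29 and -0.29), the Hsp70 family member Hspa1l (1.35 and 0.17) and the transporter Abca8b (0.36 and -0.41). Their adjusted p-values were 0.0186, 0.0288, 0.00434, 0.00434 and 0.0368. The 5 positive genes became 11 without animal 22, 2 without animal 20, 2 without animal 21, 3 without animal 25, and 1 in the fit of all arrays with the animal as a fixed replicate block. With probe set means the calls of Mmp9, Chl1 and C630043F03Rik ended (1.97, 0.83 and 0.46, adjusted p = 0.105, 0.33 and 0.437), with a pseudocount of 1 those of Chl1 and Matn4 (adjusted p = 0.0745 and 0.0736), and without a block those of Chl1, Mrpl40, Crispld1 and Abca8b (adjusted p = 0.0983, 0.0718, 0.0637 and 0.0637). The Chl1 call also ended without the filter on low signals (0.058) and that of Mrpl40 with array weights (0.0748). Those of Chl1, C630043F03Rik, Mrpl40, Matn4, Crispld1 and Abca8b each ended when single animals were left out (adjusted p up to 0.119, 0.122, 0.175, 0.0919, 0.119 and 0.177). In the fit with the replicate block Mmp9, Col22a1 and Hspa1l passed the test among the 10 genes named. The 7 negative genes became 4 without animal 21 and 11 without animal 26.

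The legs of the casting cohort differed otherwise at day 7, with list medians nearer to zero for matrix and macrophage genes. The cast leg was the right one, whereas the operated leg of the tenotomy animals is given as left by the labels and as right by the design text. Left minus right therefore sets legs of like treatment against each other only if the design text holds, and the treated sides are opposite if the labels hold. Tenotomy minus casting, each as left minus right, was positive in 1250 genes (7.8% of those tested) and negative in 1770 (11%), and positive in 802 with the beta-actin covariate. Of the 27 matricellular genes 25 had a negative and 0 a positive difference of this kind, of the 26 macrophage markers 22 and 0, and of the 20 collagens 18 and 0. The medians of these lists in casting animals were 0.27, -0.33 and 0.35. Postn differed between the legs by -4.19 in tenotomy animals and 0.69 in casting animals (tenotomy minus casting -4.88, adjusted p = 1.9e-13), Mmp13 by -7.80 and -0.60 (-7.20, adjusted p = 2.92e-14), and Cthrc1 by -5.87 and 0.47 (-6.34, adjusted p = 1.06e-15). C1qtnf3 differed by -4.79 and 1.11 (-5.90, adjusted p = 5e-14), and Serpina3n by -5.42 and -1.19 (-4.24, adjusted p = 2.4e-07). On the positive side Myl3 differed by 2.67 in tenotomy animals and 0.72 in casting animals (1.95, adjusted p = 1.17e-06). Tmem100, a membrane protein of endothelium, differed by 0.50 and -1.55 (2.05, adjusted p = 2.49e-07), Mss51, a mitochondrial protein of muscle, by 1.16 and -0.66 (1.82, adjusted p = 3.02e-08), and Pm20d2 by 1.43 and -0.27 (1.70, adjusted p = 4.86e-11). The transcript 1700123M08Rik had fitted differences of 0.88 and -0.83 (1.71, adjusted p = 0.00378). It was at or below the 40th percentile on all 7 right and 5 left arrays of the tenotomy animals, and on all 8 uncast left arrays. Its day 7 call in tenotomy animals ended in the fit of the 14 arrays with the replicate block (adjusted p = 0.0683). That call also ended without animal 20, 23, 24 or 25 (adjusted p up to 0.169). Actc1 differed by 2.47 in tenotomy animals and 2.52 in casting animals, each as left minus right (-0.05, SE 0.45, adjusted p = 0.963).

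The comparison was repeated with the casting difference turned to right minus left, the cast over the uncast leg, as the labels would have it. This setting was chosen after the data were seen. It was positive in 2033 genes (12.7% of those tested) and negative in 2691 (16.8%), of which 482 and 1210 were also called in that direction with both cohorts as left minus right. Of the 27 matricellular genes 24 were negative and 1 was positive, of the 26 macrophage markers 23 and 0, and of the 20 collagens 12 and 1. Postn (-3.50, adjusted p = 8.75e-09), Mmp13 (-8.40, adjusted p = 9.49e-18), Cthrc1 (-5.41, adjusted p = 2.9e-13), C1qtnf3 (-3.68, adjusted p = 1.74e-07) and Serpina3n (-6.61, adjusted p = 1.3e-14) were negative in this setting too. Myl3 (3.39, adjusted p = 2.38e-15) and Pm20d2 (1.17, adjusted p = 1.37e-06) were positive in both. Tmem100 changed direction (-1.05, adjusted p = 0.00638), and the calls of Mss51 (0.50, adjusted p = 0.15) and 1700123M08Rik (0.05, adjusted p = 0.956) ended. Actc1 then differed by 2.47 in tenotomy animals and -2.52 in casting animals, in opposite directions (4.98, adjusted p = 4.02e-16).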

How the data were processed

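RNA of mouse gastrocnemius was measured on 111 single-colour Affymetrix arrays, 1 per muscle. Per the labels' protocols, Trizol followed by RNeasy clean-up gave the RNA, of which 6 ug were labelled. The deposited values are 1 intensity per probe set, called signal here, made by the authors with MAS5 and GCOS per the submitters' processing notes, and each array had a trimmed mean between 99.955 and 99.965, so they were scaled to a common level. Detection calls and scanner files were not analysed here, and the number of arrays limits the precision.

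Signals were taken as log2(signal + 3.982), the pseudocount being the 20th percentile of all values; differences of low genes are understated on this scale. Of 45101 probe sets, 34958 had 1 gene in GEO's platform annotation. A gene was tested if at least 5 arrays had it over their own 40th percentile (9.65 to 17.84), and the probe set with the highest mean stood for a gene, which left 16028 of 18193 genes. A probe set at or below that percentile on every array of a leg gave a bound only. limma 3.58.1 (R 4.3.3; files were read with version 1.17.8 of data.table) fitted 16 group means over all 111 arrays taking animal as random (estimated correlation 0.0963), with an intensity trend, with Benjamini-Hochberg adjustment within each contrast and a threshold of 0.05. Values per array used exact two-sided sign-flip permutation over 7 pairs.

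Legs were paired because same-numbered left and right arrays come from 1 animal. The residuals of the 7 pairs correlated at 0.052 on average (-0.000833 to 0.196), against -0.00854 over the 42 pairings of different animals.

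The members and gene lists were chosen with earlier results of these data known. Named are the 12 genes highest and the 12 lowest on the left with 1 direction in 7 of 7 animals, up to 4 called members of each list, a fixed panel, and the 5 largest changes in each direction between days or cohorts. Alternatives were other pseudocounts, filters, normalization, probe set means, block settings, array weights, no trend, the beta-actin ratio as a covariate, and leaving out each animal. The casting difference with its sign turned was added after the data were seen. Promoter windows came from RefSeq on GRCm38.p6.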

Additional observations from a re-analysis of the deposited data

Results flagged for a closer look

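Right leg 22 stood apart from the other right legs in several genes, by a gap that is large relative to the range of its leg. Its signal was the lowest of 7 for Postn (607, next 2887), Lgals3 (212.7, next 505.7), Ctss (289.4, next 527.3), Mki67 (29.72, next 80.64) and Myoz2 (325.3, next 582.1), and the highest for Ighm (856, next 221.6). Left leg 22 was the highest for Mmp13 (8.466, next 1.555), Mmp8 (21.24, next 6.098) and Actb (4019, next 3020) and the lowest for Kit (1.042, next 8.895). The Mmp13 signals of all left legs were at or below the 40th percentile of their arrays.

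Other single muscles that stood apart were left leg 25 for Fbxo31 (995.8, next 883.8), Ppargc1a (1517, next 798.2) and Myh8 (10.98, next 23.47), left leg 21 for Mpeg1 (4.767, next 19.36), left leg 26 for Myh1 (7690, next 11300), right leg 21 for Msr1 (34.32, next 15.61) and right leg 23 for Npas2 (49.66, next 27.1). Such gaps, those of animal 22 among them, were found in 17 of 334 series of 7 muscles. Chance flags about 1 in 20 groups, which is near the share found here.

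The leg difference itself was not the same in day 2 and day 7 animals by the limma test of that contrast. Day 7 minus day 2 was 3.48 for Chil3, 3.02 for Fosl1, 2.92 for F7, 2.81 for Gal and 2.67 for Mpeg1. It was -5.89 for Mmp13, -2.72 for Sln, -2.69 for Myh8, -2.65 for Mmp3 and -2.46 for Crabp1. Chil3 and F7 were at or below the 40th percentile on all 14 arrays of day 7. Day 14 minus day 7 was 2.34 for Mmp10, 2.12 for Mmp9, 1.71 for Chl1, 0.92 for C630043F03Rik and 0.54 for Mrpl40, and -1.96 for Matn4, -1.63 for Crispld1, -1.57 for Col22a1, -1.17 for Hspa1l and -0.77 for Abca8b.

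The leg difference in tenotomy animals minus that in casting animals, each as left minus right, was 2.05 for Tmem100, 1.95 for Myl3, 1.82 for Mss51, 1.71 for 1700123M08Rik and 1.70 for Pm20d2. It was -7.20 for Mmp13, -6.34 for Cthrc1, -5.90 for C1qtnf3, -4.88 for Postn and -4.24 for Serpina3n. With the casting difference turned to right minus left, Tmem100 was at -1.05. The 1700123M08Rik signal was at or below the 40th percentile on all 7 right and 5 left arrays of the tenotomy animals, and on all 8 uncast left arrays.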

How the results depend on the processing

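The day 7 counts of 2334 higher and 2941 lower genes became 1644 and 2235 in the fit of the 14 arrays with the animal as a fixed replicate block, 2330 and 2893 with that block over all arrays, and 1921 to 2434 and 2447 to 3027 when 1 animal was left out. Of 214 count settings 199 stayed within 1.5 times. The exceptions for day 14 minus day 7 were, of 5 positive genes, 9 after quantile normalization, 2 with probe set means, 1 with the fixed replicate block, 3 without a block, 9 with the beta-actin covariate and 2 to 11 without 1 animal, and, of 7 negative genes, 11 with the covariate and 4 to 11 without 1 animal. The covariate also left 2155 higher and 1604 lower genes in right legs against sham, and 802 positive genes in tenotomy minus casting. Tenotomy minus casting had 2033 positive and 2691 negative genes with the casting difference turned to right minus left, where Tmem100 changed direction (-1.05). The beta-actin difference between legs was -0.594 to -0.332 without 1 animal, and that of Gapdh -0.0015 to 0.0247. Of 3085 settings of single genes at day 7, 2968 kept direction and side of the threshold. Uncalled differences changed sign for F7 (-0.01 with the covariate, -0.09 to 0.33 without 1 animal), Fosl1 (-0.02 to 0.41 without 1 animal), Foxo1 (-0.01 with probe set means), Mmp8 (0.10 with array weights, -0.23 to 0.16 without 1 animal), Mrpl40 (-0.11 to 0.03), Msr1 (0.03 with the covariate, -0.29 to 0.08 without 1 animal), Myh4 (-0.01 after quantile normalization, -0.15 with the covariate), P4ha2 (0 after quantile normalization, 0.03 with the covariate, -0.11 to 0.01 without 1 animal), Psmd4 (0.18 with probe set means) and Trem2 (0.03 with a pseudocount of 16, -0.15 to 0.32 without 1 animal). The causes were not tested. Genes near the 40th percentile have bounds rather than levels.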
